A study of Mus musculus with 8 samples.

Results

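To examine where the silencing mark H3K27-me3 lay at the genes of the circadian clock in fasted mouse liver, 10 core clock genes were taken by name from the gene annotation: Per1, Per2, Per3, Cry1, Cry2, Arntl, Clock, Npas2, Dbp and Bhlhe40. They are 10 of the 21851 protein-coding genes with an annotated start site that were examined. Male C57BL/6 mice with floxed JMJD3 alleles received AAV-TBG-Cre or AAV-GFP at an age of 8 weeks, and 12 weeks later, after a fast of 16 h, their livers were taken for H3K27-me3 ChIP-seq. In AAV-TBG-Cre (AAV-Cre for short), the TBG promoter targets Cre recombinase to hepatocytes, which downregulates JMJD3 (Kdm6b), a demethylase of H3K27-me3. The paper shows JMJD3 protein of these mice in liver and intestine, and not by type of liver cell. AAV-GFP was the control virus, and mice of both groups carried the floxed alleles. Each group had 2 H3K27-me3 and 2 input libraries, from 2 mice, but the deposited data hold only 1 list of enriched regions per group, made from both replicates. These lists carry no values for single mice. The error between mice is therefore unknown for every difference between AAV-Cre and AAV-GFP given here, and no test between them was possible.

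The circadian clock is a feedback loop of transcription that runs in nearly every cell. CLOCK or its paralog NPAS2 pairs with BMAL1, which is encoded by Arntl, and the pair binds E-box sequences and activates the Per and Cry genes. PER and CRY proteins then repress the pair, and BHLHE40, also named DEC1, competes for E-boxes. Dbp encodes an output factor that binds D-box sequences and drives rhythmic genes of liver metabolism. H3K27-me3 is deposited by Polycomb repressive complexes, often over CpG-rich start sites of genes that are silent in a tissue.

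In neither list did a region cover a start site or any part of the body of a clock gene. The 10 genes have 22 annotated start sites and bodies that sum to 565 kb, from 5.12 kb (Dbp) to 170 kb (Npas2), with a median of 42.2 kb against 17.4 kb for all protein-coding genes. A region over the body was present for 0 of the 10 clock genes in each list. Among all protein-coding genes, 28.9% had one in AAV-Cre and 20.7% in AAV-GFP, and the Wilson 95% interval of 0 in 10, for counting error only, reaches 27.8%. The call over gene bodies was added after the data had been seen, so this interval is a description and not a test. Regions were present beside the clock genes, however, and 40 of AAV-Cre and 22 of AAV-GFP lay within 50 kb of their start sites. For 34 of them in AAV-Cre and 22 in AAV-GFP, another protein-coding gene had the nearest start site.

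**Figure D1:**
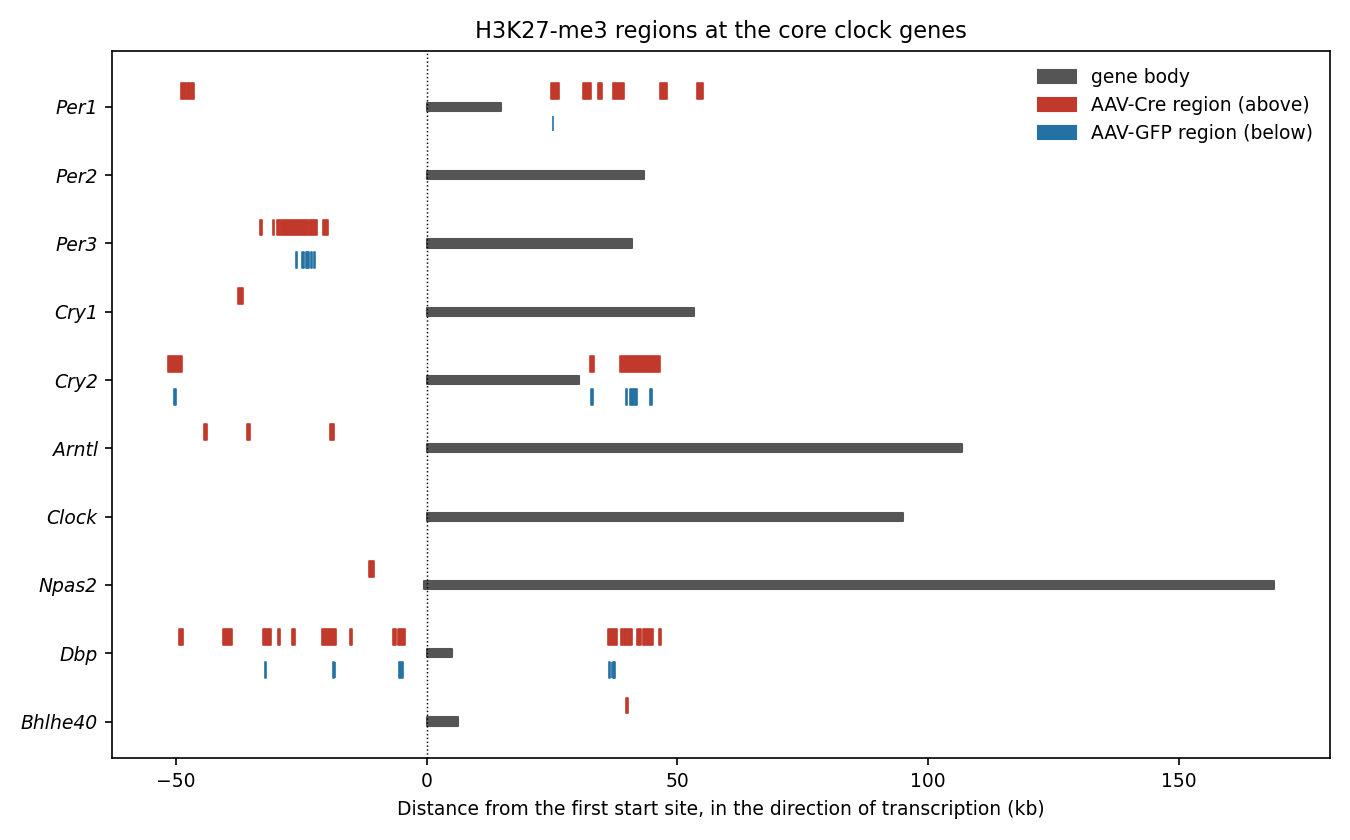
Position of every H3K27-me3 region within 50 kb of a start site of the 10 clock genes, drawn to scale in kb from the first start site of each gene in the direction of transcription, with AAV-Cre regions above and AAV-GFP regions below the gray gene body. No region touches a gene body, and Per2 and Clock have no region in the window.

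Sequences of a region over a neighboring gene and of the unmarked promoter are shown for Dbp and Per1, and the promoter alone for Npas2, which was marked within 15 kb in AAV-Cre. They are given 5′ to 3′ with each CG dinucleotide in capitals. For Dbp and Per1 the first line is 200 bases around the summit of an AAV-Cre region beside the gene, on the plus strand of mm10. The line after it, and the line for Npas2, is the promoter of the clock gene itself, with 250 bases before and 50 after the start site, from RefSeq (GRCm38.p6). The summit sequence near Dbp lies at chr7:45700126-45700325 in Car11, and the one near Per1 at chr11:69120268-69120467 over the start of Hes7. The promoters are at chr7:45704997-45705296 (Dbp, plus strand), chr11:69098699-69098998 (Per1, plus strand) and chr1:39194022-39194321 (Npas2, plus strand). Another Per1 promoter, at chr11:69099902-69100201, is not printed and contained 21 CG dinucleotides and no E-box CACGTG. Neither Per1 promoter lies at the first annotated start site of the gene, at 69095217.
Region at Car11: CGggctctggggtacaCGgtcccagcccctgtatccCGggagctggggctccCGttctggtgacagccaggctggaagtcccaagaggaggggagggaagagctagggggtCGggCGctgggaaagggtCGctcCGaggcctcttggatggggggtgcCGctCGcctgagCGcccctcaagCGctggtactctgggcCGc
Promoter of Dbp: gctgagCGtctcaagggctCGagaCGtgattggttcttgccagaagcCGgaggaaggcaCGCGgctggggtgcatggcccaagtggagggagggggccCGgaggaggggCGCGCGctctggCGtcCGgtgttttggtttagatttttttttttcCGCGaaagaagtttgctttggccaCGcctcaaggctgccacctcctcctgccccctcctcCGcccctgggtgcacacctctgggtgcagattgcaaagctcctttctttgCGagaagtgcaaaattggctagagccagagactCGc
Region at Hes7: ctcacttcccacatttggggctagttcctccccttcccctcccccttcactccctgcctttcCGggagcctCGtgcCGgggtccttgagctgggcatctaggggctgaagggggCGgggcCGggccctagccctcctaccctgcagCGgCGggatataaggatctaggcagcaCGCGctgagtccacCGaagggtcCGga
Promoter of Per1: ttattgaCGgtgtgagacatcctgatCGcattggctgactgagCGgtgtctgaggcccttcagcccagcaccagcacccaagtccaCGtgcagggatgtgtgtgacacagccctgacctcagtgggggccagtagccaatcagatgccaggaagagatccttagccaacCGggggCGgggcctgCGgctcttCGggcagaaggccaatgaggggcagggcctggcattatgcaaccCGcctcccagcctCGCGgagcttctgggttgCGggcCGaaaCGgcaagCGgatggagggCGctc
Promoter of Npas2: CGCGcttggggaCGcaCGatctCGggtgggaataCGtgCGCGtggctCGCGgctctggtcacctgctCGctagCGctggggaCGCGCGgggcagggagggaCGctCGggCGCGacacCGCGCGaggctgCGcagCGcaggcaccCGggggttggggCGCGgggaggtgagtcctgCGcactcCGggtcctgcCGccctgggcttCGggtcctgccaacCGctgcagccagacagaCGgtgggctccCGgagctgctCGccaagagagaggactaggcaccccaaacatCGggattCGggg

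The Car11 summit sequence contained 13 CG dinucleotides and 70.0% GC, and all 200 of its bases also lay in an AAV-GFP region. In the Hes7 sequence there were 11 CG dinucleotides, and 125 of its bases were in an AAV-GFP region. The unmarked promoters printed for Dbp, Per1 and Npas2 contained 18, 16 and 37 CG dinucleotides, respectively, in 300 bases. These windows are longer than the 200 bases of the summit sequences, so the counts are not directly comparable. The median was 26 over the 12 promoters that the RefSeq table holds for 8 of the clock genes (not Per2 or Bhlhe40) and 7 over all 32851 promoters of that table.

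H3K27-me3 is often deposited over CpG-rich start sites of silent genes, so the 1 kb around the first start site was examined for all genes. By a GC content of 50% or more and an observed to expected CpG ratio of 0.6 or more, 9 of the 10 clock genes (90.0%) had a CpG-rich start site, and 46.0% of all protein-coding genes did. The exception was Bhlhe40, with 64.5% GC and a ratio of 0.578, just under the threshold. Values ran from 55.4% GC and a ratio of 0.626 at Per1 to 74.3% and 0.908 at Clock and 72.8% and 1.01 at Cry1. Of 10044 genes with a CpG-rich start site, 23.7% had a region within 1 kb in AAV-Cre and 19.6% in AAV-GFP. Over all protein-coding genes the shares were 24.0% and 16.6%, so in AAV-Cre the CpG-rich class was not marked more often. Of the 9 clock genes in this class, 0 had a region within 1 kb in either list, nor did Bhlhe40.

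The promoters were also searched on both strands for the motifs of the clock. These were the E-box CACGTG, the E-prime box CACGTT, the core of the ROR element TAGGTCA (searched also in the form TGGGTCA), and the D-box TTATGTAA (searched also in the form TTACGTAA), and matches of different motifs may overlap. For the clock genes the search covered the 12 promoters of 8 genes, so Per2 and Bhlhe40 were not searched. The E-box was found in 2 of the 12, 1 each of Per1 and Cry1, and in 7.15% of all promoters. The Per1 match is visible in the printed sequence as caCGtg. The E-prime box was found in 2 of the 12, at Cry1 and Cry2 (4.68% of all promoters). The ROR core was found in 1, at Arntl (6.45%), and the D-box in 1, at Per3 (1.06%). No searched motif was present in the 300 bases printed for Dbp and Npas2, which says only that these letters are not in those windows.

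Clock genes were next compared with all other genes by distance, where marked means that the edge of a region came within a stated distance of any start site. Within 1 kb, 0 of 10 clock genes were marked in AAV-Cre (24.0% of all protein-coding genes) and 0 in AAV-GFP (16.6%). Within 5 kb, Dbp alone was marked in both lists, 1 of 10 each, against 30.1% of all genes in AAV-Cre and 20.6% in AAV-GFP. Within 15 kb, Npas2 and Dbp were marked in AAV-Cre, 2 of 10 (20.0%, Wilson 95% interval 5.67 to 51.0%, for counting error only), against 41.6% of all genes. In AAV-GFP only Dbp was marked, 1 of 10 (10.0%, interval 1.79 to 40.4%), against 28.0%. Marked only in AAV-Cre was 1 clock gene, Npas2, and 14.8% of all genes were. Marked only in AAV-GFP were 0, and 1.21% of all genes. Within 50 kb the order turned in AAV-Cre, where 8 of 10 clock genes (80.0%, interval 49.0 to 94.3%) and 61.7% of all genes had a region, whereas 4 of 10 (40.0%, interval 16.8 to 68.7%) and 46.6% did in AAV-GFP. With 10 genes these intervals are wide, and at 1 kb and 50 kb they include the share of all genes in both lists. The same holds at 5 and 15 kb.

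**Figure D2:**
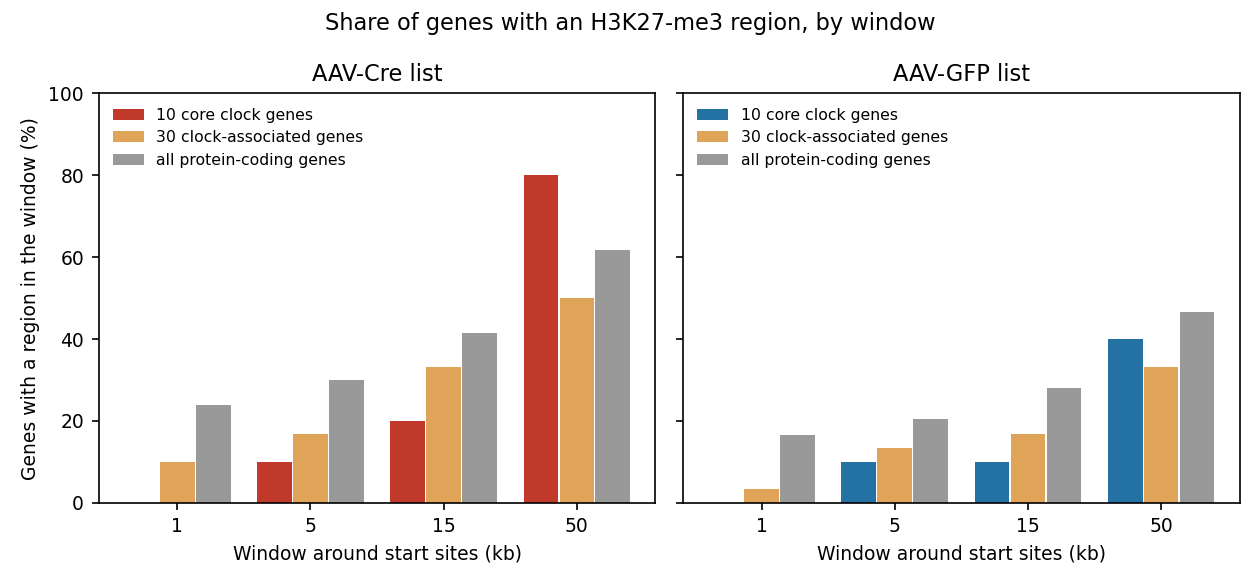
Percent of genes with an H3K27-me3 region within 1, 5, 15 and 50 kb of a start site, for the 10 core clock genes, 30 clock-associated genes and all protein-coding genes, in the AAV-Cre list (left) and the AAV-GFP list (right). No bar is drawn for the core clock genes at 1 kb because 0 of 10 had a region, and at 50 kb they reach 80.0% and 40.0%.

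The distance from a start site to the nearest region put the genes in an order. In AAV-Cre it was 4253 bp for Dbp, 10406 bp for Npas2, 18477 bp for Arntl, 19560 bp for Per1, 19650 bp for Per3, 32545 bp for Cry2, 36565 bp for Cry1, 39463 bp for Bhlhe40, 53018 bp for Per2 and 57767 bp for Clock. In AAV-GFP it was 4643 bp for Dbp, 19795 bp for Per1, 22348 bp for Per3, 32722 bp for Cry2, 58224 bp for Clock, 80897 bp for Cry1, 113099 bp for Per2, 129729 bp for Npas2, 150049 bp for Arntl and 484042 bp for Bhlhe40. Dbp was nearest in both lists, and at Dbp, Per1, Per3, Cry2 and Clock the lists gave like distances. At Npas2, Arntl, Cry1, Per2 and Bhlhe40 the nearest AAV-GFP region was much farther away. The median of the 10 genes was 26.1 kb in AAV-Cre, beside 26.7 kb for all protein-coding genes, and 69.6 kb in AAV-GFP, beside 58.3 kb. Npas2 was just inside the window of 15 kb and Arntl just outside it, and Per2 and Clock were just outside 50 kb.

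**Figure D3:**
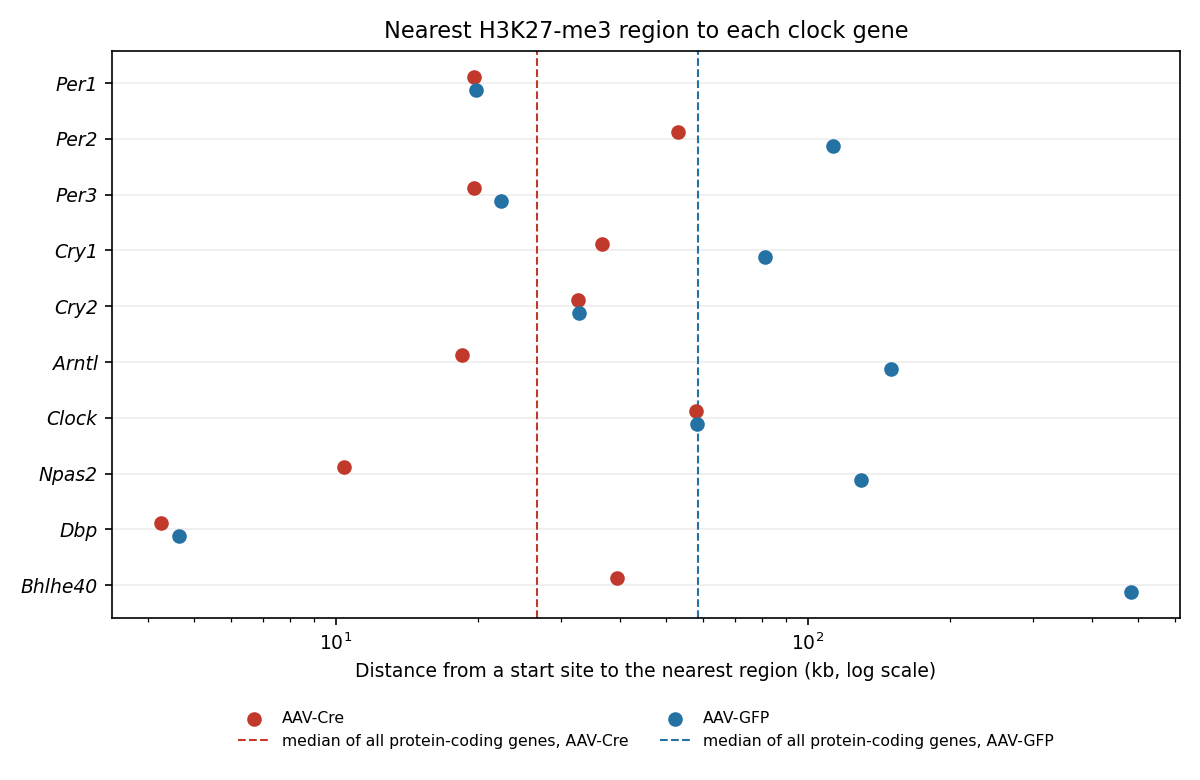
Distance in kb (log scale) from a start site of each clock gene to the nearest H3K27-me3 region in the AAV-Cre list and the AAV-GFP list, with dashed lines at the medians of all protein-coding genes, 26.7 and 58.3 kb. The points of both lists lie close together at Dbp, Per1, Per3, Cry2 and Clock and apart at the other 5 genes.

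Among the activators, 0 to 3 regions lay within 50 kb in AAV-Cre and 0 in AAV-GFP. Clock (ENSMUSG00000029238.11, chromosome 5, 76209868 to 76304792, minus strand) had 0 regions within 50 kb of its 3 start sites in either list. The stretch without a region around it, 180 kb long in AAV-Cre and 340 kb in AAV-GFP, was the shortest of the 3 activators in each list. Its closest AAV-Cre region by the gene body was 26.9 kb beyond the 3′ end.

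Arntl (ENSMUSG00000055116.8, chromosome 7, 113207465 to 113314126, plus strand) encodes BMAL1, the partner that CLOCK and NPAS2 share. In AAV-Cre, 3 intergenic regions lay upstream of it, of 869, 496 and 502 bp, at 18477, 35285 and 43812 bp from the first start site, and in AAV-GFP there was none within 150049 bp. The middle region (113171685 to 113172180) was the strongest, enriched 3.65-fold (q = 5.93e-06). The other 2 were enriched 2.38- and 2.30-fold, each at q = 0.0573. The body of 107 kb was free of regions, within a free stretch of 183 kb in AAV-Cre and 425 kb in AAV-GFP.

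Npas2 (ENSMUSG00000026077.15, chromosome 1, 39193731 to 39363236, plus strand) was the clock gene marked only in AAV-Cre at 15 kb. The call rests on 1 intergenic region of 1043 bp that lay 10406 bp upstream, and 3186 bp from the start of Mir6349. Its fold enrichment was 2.60, below the median of 2.90 over all AAV-Cre regions, and its q-value was 0.00860. It was lost when the same number of top peaks was taken from each list and at a −log10 p of 5 or more. The whole body of 170 kb, the longest of the 10, had no region, and the free stretch around it was 316 kb in AAV-Cre and 572 kb in AAV-GFP.

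The repressors differed among themselves in the number of regions near them. Per2 (ENSMUSG00000055866.9, chromosome 1, 91415982 to 91459324, minus strand), whose product is a rate-limiting repressor of the loop, had 0 regions within 50 kb of its start site in either list. An AAV-Cre region ended 9676 bp beyond its 3′ end, 53018 bp from the start site, and the closest AAV-GFP region was 69757 bp beyond the 3′ end.

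Per1 (ENSMUSG00000020893.17, chromosome 11, 69095217 to 69109960, plus strand) had 9 AAV-Cre regions and 1 AAV-GFP region within 50 kb of its 4 start sites. In AAV-Cre, 3 lay upstream over Aurkb, a mitotic kinase, with fold enrichments of 2.38 to 3.17. The other 6 were downstream, beyond the 3′ end, with 1 over Hes7, 4 in Aloxe3, which encodes a lipoxygenase of the epidermis, and 1 between protein-coding genes. Hes7 is itself an oscillating repressor, of the segmentation clock of the embryo. The region over its start site (69120082 to 69121701, 1620 bp) was enriched 3.80-fold over input (q = 2.91e-07), and it contained the single AAV-GFP region (69120317 to 69120441, 125 bp), enriched 2.39-fold (q = 0.129). All 9 AAV-Cre regions had a q-value of 0.05 or lower, and the AAV-GFP region did not.

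At Per3 (ENSMUSG00000028957.12, chromosome 4, 151003652 to 151044665, minus strand) all regions of both lists were upstream and inside the body of Camta1, a calmodulin-binding transcription activator with large introns. AAV-Cre had 6 of them, which covered 9383 bp, and AAV-GFP had 6, which covered 1257 bp. The widest AAV-Cre region spanned 5200 bp (151068274 to 151073473) over a coding exon, enriched 4.08-fold (q = 7.90e-08), and 4 AAV-GFP regions overlapped it. The 6 AAV-GFP regions were 126 to 290 bp wide with fold enrichments of 2.34 to 2.61, and 0 of them had a q-value of 0.05 or lower.

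Cry1 (ENSMUSG00000020038.10, chromosome 10, 85131700 to 85185064, minus strand) had 1 AAV-Cre region, intergenic and 36565 bp upstream (85221629 to 85222632, 1004 bp), enriched 2.73-fold (q = 0.00860). AAV-GFP had none within 80897 bp of the start site. At Cry2 (ENSMUSG00000068742.11, chromosome 2, 92403646 to 92434043, minus strand), in contrast, both lists had regions beyond the 3′ end over Mapk8ip1, which encodes a scaffold of the JNK pathway and is active in neurons and pancreatic islets. The AAV-Cre region of 8012 bp (92387447 to 92395458) was enriched 8.57-fold over input (q = 2.51e-31) and ranked 1734 by p-value in its list, within the top 2.93%. It covered a start site of Mapk8ip1 and contained 4 AAV-GFP regions. A second, of 837 bp (92400655 to 92401491), covered another Mapk8ip1 start site, had a fold enrichment of 4.22 and ended 2155 bp from the 3′ end of Cry2. The AAV-GFP region inside it was 453 bp wide and ended 2332 bp from the 3′ end. These were the closest regions to the body of any of the 10 genes. Upstream, at the edge of the window, 1 region of each list overlapped (48773 bp away in AAV-Cre and 49995 bp in AAV-GFP), the latter enriched 3.46-fold (q = 3.97e-05).

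Of the output and accessory factors, Dbp (ENSMUSG00000059824.12, chromosome 7, 45705088 to 45710203, plus strand) had the most regions near it of the 10 genes in each list. AAV-Cre had 16 regions over 17366 bp within 50 kb of its start sites, and AAV-GFP had 9 over 1926 bp, fewer bases than the 2875 bp of the 6 AAV-GFP regions near Cry2. All of them belonged to the neighbors by the closest start site. In AAV-Cre these were Sult2b1 (7 regions), Fut2 (3), Ntn5 (3), Car11 (2) and Sec1 (1), and in AAV-GFP Sult2b1 (4), Car11 (2), Ntn5 (2) and Fut2 (1). The strongest was that over the start site of Car11, which encodes an inactive member of the carbonic anhydrase family (45699279 to 45700835, 1557 bp). Its enrichment of 11.3-fold (q = 7.25e-48) gave it rank 670 by p-value among the 59267 AAV-Cre regions. It held 2 AAV-GFP regions of 527 and 330 bp, with fold enrichments of 2.93 and 2.77 and q-values of 0.00137 and 3.1e-04. The AAV-Cre region ended 4253 bp before the first start site of Dbp, and from there the sequence was free of regions across Dbp and for another 31.0 kb beyond its 3′ end, up to Sult2b1. In AAV-GFP this free stretch was nearly the same, 41.1 kb against 40.4 kb in AAV-Cre. At Sult2b1, a sulfotransferase of cholesterol, an AAV-GFP region of 150 bp had the highest fold enrichment of that list near a clock gene, 4.06, with a q-value of 2.59e-07.

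Bhlhe40 (ENSMUSG00000030103.11, chromosome 6, 108660629 to 108666925, plus strand) had the longest free stretch of the 10 genes in both lists. In AAV-Cre it had 1 region of 405 bp (108700337 to 108700741), which was 39463 bp from a start site, was enriched 2.34-fold and did not reach a q-value of 0.05 (0.0573). In AAV-GFP the nearest region was 484042 bp away, and the free stretch around the gene was 2326 kb long, against 505 kb in AAV-Cre.

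The regions near clock genes were then considered as a set. In AAV-Cre, 10 of the 40 (25.0%) overlapped an AAV-GFP region, close to the 24.2% of the whole list, and in AAV-GFP 22 of 22 (100%) overlapped an AAV-Cre region, against 86.4% of the whole list. The 22 overlapped the same 10 AAV-Cre regions, so they were not 22 separate sites. Those 10, which lay near Dbp, Cry2, Per3 and Per1, were 1738 bp wide at the median and enriched 2.91- to 11.3-fold. The other 30 were 740 bp wide at the median and enriched 2.21- to 4.34-fold. At Arntl, Npas2, Cry1 and Bhlhe40 all regions were among the 30, 6 in total, and these 6 were also the only ones for which the clock gene had the closest protein-coding start site. All 40 together had a median width of 839 bp (753 bp over the whole list), and the 22 of AAV-GFP 204 bp (231 bp). In AAV-Cre, 34 regions (85.0%, against 88.6% of the list) had a q-value of 0.05 or lower, and in AAV-GFP 7 did (31.8%, against 46.8%). By annotation, 18 AAV-Cre regions overlapped an exon of a protein-coding gene, 11 lay in introns alone and 11 between protein-coding genes. In AAV-GFP the numbers were 10, 10 and 2. The median GC content was 52.5% in AAV-Cre (50% over the list) and 57.3% in AAV-GFP (50.4%).

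**Figure D4:**
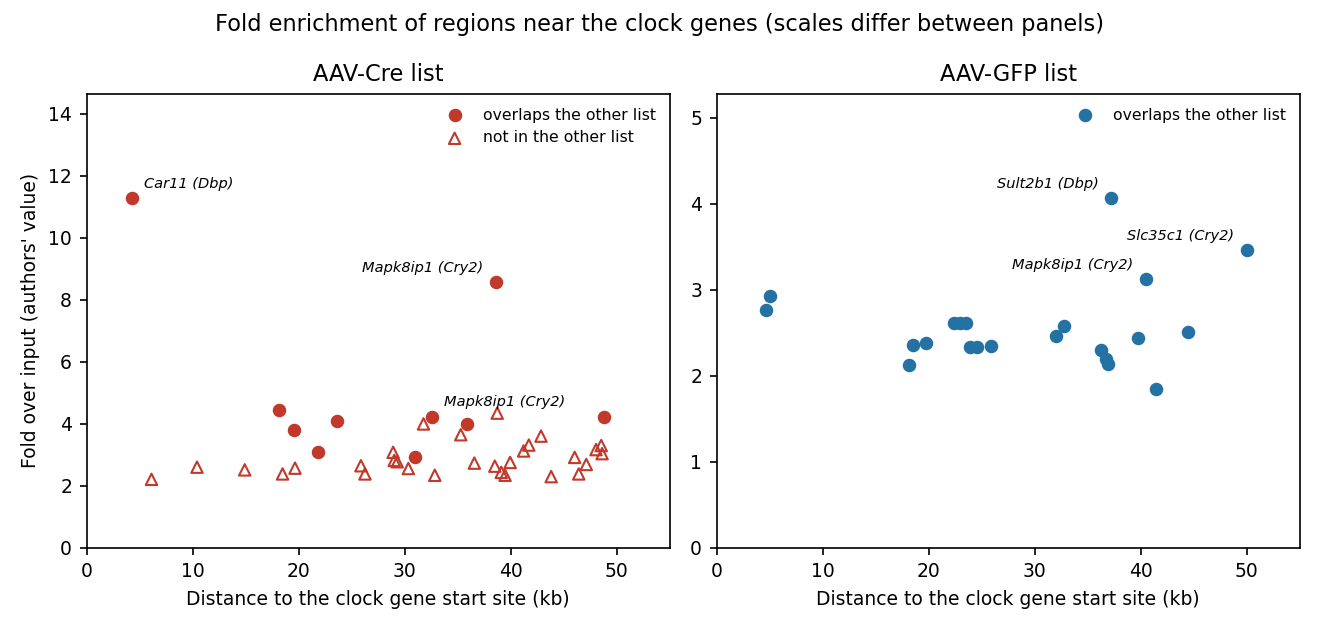
Fold enrichment over input, as given by the authors' peak caller, of the 40 AAV-Cre regions (left) and 22 AAV-GFP regions (right) near the clock genes against their distance in kb from the start site, with filled circles for regions that overlap the other list and open triangles for those that do not. The regions over Car11 near Dbp (11.3) and over Mapk8ip1 near Cry2 (8.57) stand above all others of AAV-Cre, and the vertical scales of the panels differ.

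The lists differed in size and width. AAV-Cre held 59267 regions, none shorter than 300 bp, and AAV-GFP 34586, down to 120 bp. With the same number of top peaks from each list, 24 AAV-Cre and 22 AAV-GFP regions remained near the clock genes, and 5 and 4 of the genes, respectively, had one within 50 kb. Per1, Per3, Cry2 and Dbp had one in both lists and Arntl had one in AAV-Cre alone. Several other settings reduced the AAV-GFP genes to 2, Cry2 and Dbp. The numbers in AAV-Cre and AAV-GFP were 7 and 2 with q-value limits of 0.05 and of 0.01, 5 and 2 at a −log10 p of 5 or more, and 8 and 2 at a width of 300 bp or more. After merging within 5 kb they stayed at 8 and 4. Liver is a mixture of cells, and a region present in few cells cannot be told apart from a weak mark in many. Of 14 hepatocyte genes examined as a check of the tissue, 0 were marked within 15 kb in either list. At the same window all 5 genes of stellate cells and all 4 of cholangiocytes were marked in both lists. Other cell types were mixed, with 5 of 5 endothelial genes marked in AAV-Cre and 3 in AAV-GFP. For Kupffer cells 3 of 5 genes were marked in AAV-Cre and 0 in AAV-GFP.

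Of 30 further genes that act on or beside the clock, 10 (33.3%) were marked within 15 kb in AAV-Cre and 5 (16.7%) in AAV-GFP, beside the shares of all genes given above. Rorb, Arntl2 and Cipc were among those marked in both lists. In AAV-GFP, 2 of the 5 Rorb regions within 15 kb had a q-value of 0.05 or lower. Arntl2 had 1 such region of 204 bp in AAV-GFP, enriched 1.91-fold, and Cipc 1 of 213 bp, enriched 2.36-fold. Neither of these 2 regions reached a q-value of 0.05. Rorb, a nuclear receptor expressed in neurons and retina, had an AAV-Cre region of 4775 bp over its start site enriched 7.56-fold (q = 1.13e-24). Arntl2, the paralog of Arntl, had an AAV-Cre region of 643 bp that lay 24 bp from a start site, with a fold enrichment of 3.47. Cipc, an inhibitor of CLOCK, had one 3686 bp away. By comparison, the nearest AAV-Cre region was 18477 bp from a start site of Arntl itself.

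The genes marked only in AAV-Cre were Nfil3, Csnk1d, Csnk1e, Btrc, Usp2 and Sirt1. Csnk1d and Csnk1e encode the casein kinases that phosphorylate PER, and their nearest AAV-Cre regions were 13163 and 12462 bp from a start site, with fold enrichments of 2.51 and 4.30. The region of Csnk1e lay over the gene body, and that of Csnk1d did not. For Nfil3, a repressor at D-boxes, the region of 420 bp lay 2202 bp from a start site and had a q-value of 0.121. Those of Btrc and Sirt1 also missed a q-value of 0.05 (0.137 and 0.0573), and that of Usp2 had 0.00299. Rora, which activates Arntl, was marked only in AAV-GFP, by a region of 120 bp enriched 1.93-fold (q = 1). The other 19 genes were marked in neither list. Among them were Nr1d1 and Nr1d2, which encode the REV-ERB repressors of Arntl. Their nearest AAV-Cre regions were 61870 and 802668 bp away, and their nearest AAV-GFP regions 103082 and 70767 bp away. For Tef and Hlf, the paralogs of Dbp, the AAV-Cre distances were 108583 and 28722 bp, and for Bhlhe41, the paralog of Bhlhe40, 18620 bp.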

How the data were processed

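The authors sequenced H3K27-me3 ChIP and input DNA from livers of fasted JMJD3-floxed mice (2 libraries of each kind per virus), and libraries were grouped by the sample labels. The authors used the AQUAS pipeline with a pooled input, and per the labels BWA 0.7.13, SAMtools 1.2 and Picard 1.126. MACS called the peaks on mm10, and those overlapping across replicates were kept in 1 list per group. For each peak the deposited lists give the position, the fold enrichment over input (a ratio), the −log10 of the p-value and q-value, and a display score that was not used. Folds were compared only within a list. Read depth is unknown, and calling narrow peaks splits broad domains and drops weak signal.

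Clock genes were matched by name in GENCODE M21, and start sites were those of basic protein-coding transcripts on 21 chromosomes. Regions (0 of which ran beyond a chromosome end of GRCm38) were counted within 50 kb of a start site or over the body, with distance measured to the nearer edge. Regions were shared when they overlapped by 1 bp or more. Intergenic regions were those that overlapped no protein-coding gene, and they may overlap genes of other types. Wilson 95% intervals are given for shares of genes and cover counting error alone. With 1 list per group, no test was made. The members and gene lists, and the rule to name all members and the marked genes of the clock-associated list, were chosen with earlier results of these data known. The CpG-rich class and the call over gene bodies were added after the data had been seen. On simulated data, 100% of 1000 genes with 2000 regions equalled a direct search. Python 3.11, SciPy 1.17.1 and matplotlib 3.10.9 were used. One clock-associated gene and 1 sequence are not reported here.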

Additional observations from a re-analysis of the deposited data

How the results depend on the processing

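Of 12 alternatives, all 6 that changed the peaks left 0 clock genes with a region over the body and kept Dbp marked at 15 kb in both lists. Each list joins both mice, so leaving out a mouse could not be run. No paired analysis was possible because values per replicate are not held in the lists. Counts, bases and distances that moved by over 1.5 times follow, with the shares of regions that moved by as much; where a setting removes or joins peaks this is its own construction, and otherwise the cause was not tested. Peak thresholds mostly touched AAV-GFP. At a q-value of 0.05 or lower it had 7 regions near clock genes over 3121 bp and 1 marked clock-associated gene, and 14.7% of AAV-Cre regions were shared. At 0.01 or lower these were 6 regions, 2668 bp and 1 gene, with a median distance of 156122 bp, and in AAV-Cre 6 associated genes were marked and 13.3% of regions were shared. At a width of 300 bp or more AAV-GFP had 7 regions, 3466 bp and 1 associated gene, and 10% of AAV-Cre regions were shared. At a −log10 p of 5 or more AAV-GFP had 5 regions, 2289 bp, 1 associated gene and a distance of 156122 bp, and AAV-Cre had 22 regions, 1 marked clock gene (Dbp), 5 associated genes and a distance of 45927 bp. With the same number of top peaks AAV-Cre had 24 regions, 1 marked clock gene (Dbp), 5 associated genes, 41.7% shared and a distance of 45927 bp. Merging within 5 kb gave 20 regions over 122469 bp in AAV-Cre, 50% of them shared, and 9 over 12521 bp in AAV-GFP. Where 0.5 of a region had to be covered, 5% were shared. Within 1 kb, 0 clock genes were marked in AAV-Cre and 0 in AAV-GFP, with 3 and 1 associated genes and 5236 and 3632 of all genes. Within 5 kb AAV-Cre marked 1 clock gene and 5 associated genes. Within 50 kb 8 and 4 clock genes were marked, and in AAV-GFP 10 associated genes and 10176 of all genes. Start sites of all transcripts and sharing within 1 kb moved no value.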

Other observations

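Markers of other liver cells and lineages, examined as a check of the tissue, differed in their mark. All 5 stellate cell genes (Lrat, Des, Pdgfrb, Reln and Col1a1) had a region within 1 kb of a start site in both lists. Of 4 cholangiocyte genes, 4 did in AAV-Cre and 3 in AAV-GFP, and of 5 endothelial genes 3 and 2. For Kupffer cells, macrophages of the liver, 1 of 5 genes did in AAV-Cre (Adgre1) and 0 in AAV-GFP. Of 14 hepatocyte genes found under the listed symbols 0 did in either list, as for the 10 clock genes. Of 6 genes of other lineages, 4 did in AAV-Cre (Neurod1, Neurog1, Myod1 and Pax6) and 3 in AAV-GFP.

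Stretches free of regions around the clock genes ran from 40.4 to 505 kb in AAV-Cre, with a median of 144 kb. Over the 15264 protein-coding genes without a region over the body and with a region on both sides along the chromosome, the median was 272 kb. In AAV-GFP the medians were 382 kb for the clock genes and 446 kb for 17022 such genes.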
